A study of Homo sapiens with 2 samples.

Results

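The regions described here are the Rb peaks of the prostate cancer cell line VCaP that had no counterpart in the cell line LNCaP. They were chosen by overlap: a VCaP peak on chromosomes 1 to 22 or X was taken when its interval shared no base with any LNCaP peak. This selected 2705 of 9393 VCaP peaks, or 28.8% (95% exact interval 27.9 to 29.7), and left 6688 VCaP peaks that overlapped a peak of LNCaP, called shared below. The deposited lists hold 31417 peaks in all. The sites come from ChIP-seq, in which chromatin bound by Rb is pulled down with an antibody, here the mouse monoclonal 4H1, and sequenced. VCaP and LNCaP are established human cell lines. Cells of both lines, at passage 10 to 15, spent 3 days in 5% charcoal/dextran-treated serum, which is low in steroids, and then 4 h with 10 nM of the androgen DHT. Every library therefore had DHT, and no untreated or input library was analysed here. Each line is represented by 1 library, so the lists are described without a test between lines, and the intervals given cover counting error only.

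Rb, the retinoblastoma protein, is a tumour suppressor that restrains entry into S phase. It has no DNA-binding domain of the sequence-specific kind and reaches chromatin mainly through E2F transcription factors, which recognise GC-rich words in promoters of cell cycle genes. In a peak list, the pileup is the number of extended tags over the peak's summit, and the fold enrichment is the ratio of that pileup to the tag density around it. Both are the authors' own values for each peak.

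No sequence of build hg19, in which the peaks are placed, was used here, so the bases under the peaks are not printed. To show the kind of sequence found at promoters, the 250 bases before the start of 3 genes are given from RefSeq (GRCh38.p14), 5′ to 3′ in the direction of the gene. They are SMC1B and MST1R, among the 10 members of highest fold enrichment, and NAIF1, a tall member close to a LNCaP peak. The link from these peaks to these genes rests on general knowledge of gene positions in hg19, not on an annotation, and the genes were picked after the values were seen. SMC1B encodes a cohesin subunit of meiotic chromosomes, MST1R a receptor tyrosine kinase, and NAIF1 a nuclear protein linked to apoptosis. All 3 lie on the minus strand. Capitals mark the E2F word TTNNCGC on either strand, where each N is C or G.
SMC1B: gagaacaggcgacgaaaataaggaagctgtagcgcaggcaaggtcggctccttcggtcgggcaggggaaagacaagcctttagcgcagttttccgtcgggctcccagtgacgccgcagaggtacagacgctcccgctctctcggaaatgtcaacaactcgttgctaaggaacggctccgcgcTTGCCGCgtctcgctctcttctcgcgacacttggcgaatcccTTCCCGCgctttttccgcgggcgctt
MST1R: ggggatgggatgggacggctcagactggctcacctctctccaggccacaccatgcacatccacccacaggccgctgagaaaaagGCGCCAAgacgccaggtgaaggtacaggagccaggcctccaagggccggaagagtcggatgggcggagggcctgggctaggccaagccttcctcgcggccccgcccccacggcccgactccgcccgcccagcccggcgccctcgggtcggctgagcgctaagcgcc
NAIF1: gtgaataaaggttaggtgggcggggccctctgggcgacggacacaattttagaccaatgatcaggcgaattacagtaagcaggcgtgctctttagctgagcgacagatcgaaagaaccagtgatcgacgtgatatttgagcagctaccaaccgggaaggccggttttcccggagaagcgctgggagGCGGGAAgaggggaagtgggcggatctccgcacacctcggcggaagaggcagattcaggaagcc

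SMC1B held 2 such words, MST1R 1 and NAIF1 1. The words were searched for first with 1 more T at their 5′ end (TTTNNCGC), and none of the 3 promoters held one. The 7-letter words were taken up only after the sequences had been read. Of 35116 RefSeq promoters of the same length, 10.9% held a 7-letter word and 2.79% an 8-letter word. The promoter of MUS81, the only other one searched, held neither and is not printed. The 3 printed promoters are thus the ones with a match, so the 10.9% cannot serve as a background for them. These matches describe letters in a window, and nothing was read from them about E2F or Rb.

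The VCaP-only peaks were mostly small. Their median pileup was 11 tags (quartiles 9 and 14), against 14 (11 and 18) at shared VCaP peaks. Their median length was 265 bp (225 and 326), and 703 of them had the shortest length in the list, 225 bp, which is the modelled fragment length. Among VCaP peaks of that length 52.3% were VCaP-only (49.6 to 55.0), and among those of 600 bp or more 6.06% were (4.25 to 8.32). Only 9.76% of the members (264 peaks, 8.67 to 10.9) had 20 tags or more, while 16.9% of all VCaP peaks did. The median fold enrichment was 5.14, and −log10 q had a median of 4.36 against 5.87 at shared peaks.

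The share of VCaP peaks without a LNCaP counterpart fell with pileup and then rose again at the tallest peaks. It was 59.9% (56.0 to 63.8) at 6 to 8 tags, 47.6% at 9 to 10, 31.2% at 11 to 12, 21.3% at 13 to 15 and 14.3% (12.7 to 16.1) at 16 to 20. From there it was 14.9% at 21 to 30 tags, 16.6% at 31 to 50 and 30.6% (23.2 to 38.8) above 50, where 44 of 144 peaks were VCaP-only. The classes were set after seeing the data. At the low end, 380 members had at most 8 tags (14.0% of all members) and 806 had 9 or 10 (29.8%).

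**Figure D1:**
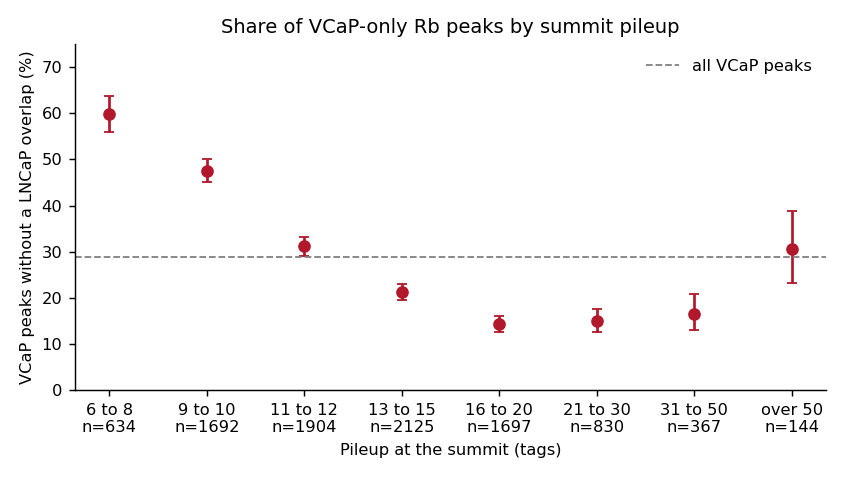
Share of VCaP peaks without a LNCaP overlap (vertical axis, percent) in classes of summit pileup in tags (horizontal axis, with the number of VCaP peaks). Points are shares, bars are exact 95% intervals and the dashed line is the 28.8% over all VCaP peaks; the lowest share, 14.3%, is at 16 to 20 tags and the share above 50 tags is 30.6%.

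The depth of the libraries may bear on the small members. VCaP had 8691938 tags after filtering and LNCaP 3671482, 0.422 times as many. Scaled by that ratio, the median member would have 4.65 tags in LNCaP. The lowest pileup of any LNCaP peak was 4.00 tags, and 817 members (30.2%, 28.5 to 32.0) scaled to less than that, against 9.27% of shared peaks (8.59 to 9.99). With 6 tags as the limit, the 5th percentile of LNCaP pileups, 2126 members (78.6%, 77.0 to 80.1) and 54.2% of shared peaks (53.0 to 55.4) scaled to less. By the rule, every shared peak overlapped a LNCaP peak. Their median pileup was 14 tags, and that of the LNCaP peaks they overlapped was 20. Shared sites were chosen for having a LNCaP peak, so these values do not show how depth acts at the members. The LNCaP list was the longer one, with 21955 peaks against 9393. Among the 7956 VCaP peaks of 10 tags or more, which scale to at least the LNCaP minimum, 1888 or 23.7% were VCaP-only (22.8 to 24.7). At the small members, a site absent from LNCaP and a site of equal strength sampled less deeply cannot be told apart.

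Most members lay far from any LNCaP peak in terms of peak width. The distance from random positions to a LNCaP peak was not computed, so the distances are a description only. The median distance to the nearest LNCaP summit was 29.2 kb (quartiles 8.96 and 82.1). Within 1 kb lay 248 members, 9.17% (8.11 to 10.3), within 10 kb 721, and within 100 kb 2142. Beyond 1000 kb lay 8. Members at each distance were much alike in height: the median pileup was 12 tags within 1 kb and 11 beyond 100 kb, and the median fold enrichment 5.03 and 5.14. Within 1 kb of a shared VCaP peak lay 60 members (2.22%, 1.70 to 2.85). The same share was not computed for all VCaP peaks, so it cannot be called low or high. Members of 20 tags or more made up 18.2% of those 1 to 10 kb from a LNCaP summit and 6.90% of those 10 to 100 kb away.

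**Figure D2:**
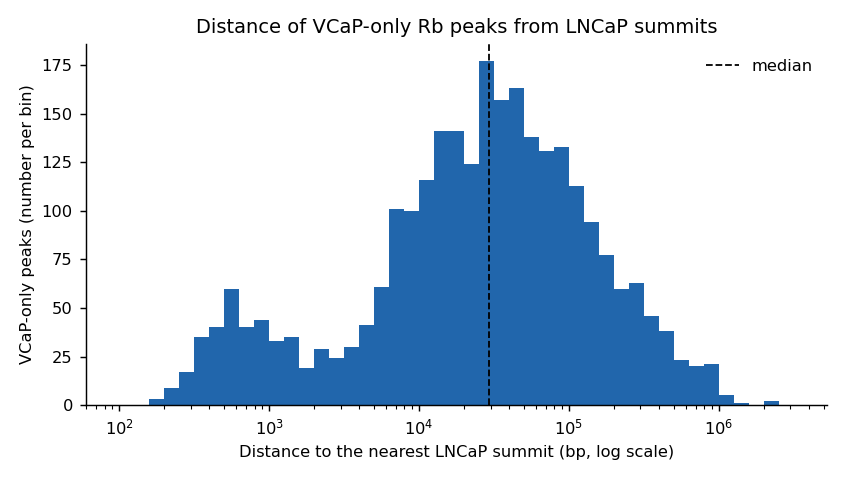
Number of VCaP-only peaks (vertical axis) by distance from their summit to the nearest LNCaP summit in bp (horizontal log axis). The dashed line is the median, 29.2 kb; 248 of 2705 peaks lie within 1 kb.

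The edge of the rule separated nearly touching peaks. The members nearest to a LNCaP peak were at chr3:49466838-49467129 (11 tags) and chr2:154335160-154335486 (12 tags), each directly adjacent to it, with summits 323 and 240 bp apart. Just on the other side, the VCaP peak at chr11:809315-809629 (14 tags) shared 1 bp with a LNCaP peak, and its summit was 340 bp away. A gap of at most 100 bp separated 78 members (2.88%) from a LNCaP peak. The number of members depended on the rule: it was 5374 when a shared peak had to cover 50% of its partner and the reverse, 4507 when LNCaP was limited to as many peaks as VCaP, and 991 among VCaP peaks with −log10 q of at least 5. At the far end were the peaks at chr6:61911466-61911810 and chr6:61914121-61914403, 2296 and 2293 kb from the nearest LNCaP summit, with 15 and 23 tags. The next were at chr4:181749737-181749961 and chr4:181868629-181868945, both with 11 tags.

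The tallest VCaP-only peaks sat beside long intervals in which neither list had a peak. The lists leave 62 intervals of at least 2.5 Mb without any peak, among them those at centromeres, where this build holds little sequence. Of the 25 members of highest pileup, 24 lay within 1 Mb of such an interval, while 3.75% of all VCaP peaks did. Among VCaP peaks above 50 tags, 41 of 72 near these intervals were VCaP-only, 56.9% (44.7 to 68.6), and 3 of 72 elsewhere, 4.17% (0.868 to 11.7). Away from the intervals the share of VCaP-only peaks thus did not rise again above 50 tags. Near the intervals 174 of 352 VCaP peaks were VCaP-only, 49.4% (44.1 to 54.8), and these had a median pileup of 22 tags. The limits of 2.5 Mb and 1 Mb were set after seeing the data. Absence of LNCaP peaks entered both the intervals and the rule for members. The shares near the intervals are therefore a description only.

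These tall members stood in windows full of tags, so their fold enrichment was modest. The peak of highest pileup, at chr10:42387034-42387462, had 172 tags, with 1953 tags in the 10 kb window around it and a fold enrichment of 3.85. On chromosome 10, 7 of the 25 lay between positions 42387034 and 42598169, with 64 to 172 tags. On chromosome 16, 5 lay between 46391043 and 46407004, with 76 to 154 tags and 938 to 1555 tags in the window. Chromosome 2 held 4, with 64 to 87 tags, and chromosomes 19 and 17 held 3 and 2. Chromosome 18 held 3, with 74 to 96 tags, and chromosome 8 held 1. The peak at chr18:110317-110566, with 74 tags, was the 1 of the 25 that lay away from the peak-free intervals. The median window of the VCaP list held 68.0 tags. Among the 25, 24 had more than 5 times that, as did 1.01% of all VCaP peaks. Of the 95 VCaP peaks with such windows, 55 were VCaP-only, 57.9% (47.3 to 68.0), and the rest were shared. Dense windows were thus not particular to VCaP-only peaks. In the 25, the fold enrichment ran from 2.36 to 10.8 with a median of 3.92. A LNCaP summit lay within 10 kb of 22 of them. No control library was used to call these peaks, and the part of the dense windows in their height was not tested.

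**Figure D3:**
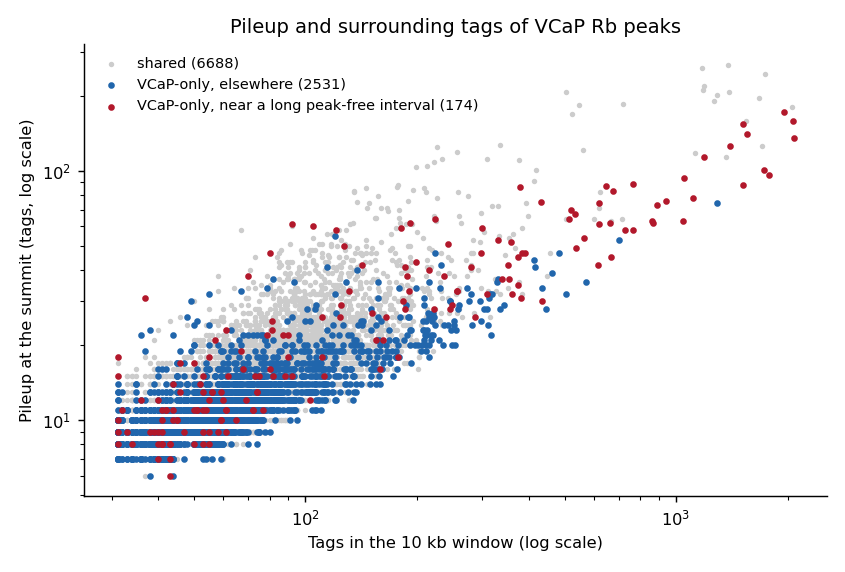
Pileup at the summit in tags (vertical log axis) against tags in the surrounding 10 kb window (horizontal log axis) for shared VCaP peaks (grey), VCaP-only peaks within 1 Mb of a long peak-free interval (red, 174) and other VCaP-only peaks (blue, 2531). Members of more than 50 tags are mostly red and lie toward the right, at densely tagged windows.

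Fold enrichment picked out a partly different group. Of the 10 members of highest fold enrichment, 6 lay near a long peak-free interval. The other 4 were at chr21:44343936-44344399, with 55 tags and a fold enrichment of 15.1, chr10:135173632-135174028 (32 tags, 14.7), chr22:45809285-45809692 (30 tags, 14.7) and chr3:49941292-49941678 (33 tags, 13.6). Their windows held 120, 55.0, 49.0 and 67.0 tags, near or below the median of 68.0 except for the first. The last 3 were thus tall without a dense surrounding.

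Of these, the peak on chromosome 22 lies at the start that SMC1B shares with RIBC2, a gene read in the opposite direction. The nearest LNCaP summit was 104 kb away. The peak on chromosome 3 lies at the start of MST1R, with the nearest LNCaP summit at 25.3 kb. Both sites thus had no LNCaP peak in the promoter region. These names, and those that follow, again rest on general knowledge of hg19. RefSeq places all 19 genes examined on the peak's chromosome, and in 20 of 20 pairs on 1 chromosome in the same order as the peaks. Chromosome and order do not show that a peak lies at a gene's start or inside it.

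Other tall members at or in genes lay beside a LNCaP peak and missed it narrowly. At NAIF1, the VCaP peak at chr9:130829596-130829983 had 40 tags and a fold enrichment of 9.99, and LNCaP had a peak of 39 tags 245 bp away. Per 1000000 tags of the library these were 4.60 in VCaP and 10.6 in LNCaP. At MUS81, which encodes a DNA endonuclease that cuts stalled replication forks, the VCaP peak at chr11:65627848-65628166 had 37 tags and the LNCaP peak lay 18 bp away with 23, or 4.26 and 6.26 per 1000000 tags. At both genes the LNCaP peak was thus the higher once scaled to depth. At the histone genes H2BC12 and H2AC12 on chromosome 6, members of 36 and 31 tags flanked a LNCaP peak of 11 tags, at gaps of 123 and 90 bp. Scaled in the same way, these were 4.14 and 3.57 in VCaP and 3.00 in LNCaP.

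Several members inside genes had no LNCaP summit within 10 kb, as was the case for 73.3% of all members. The peak at chr10:78307076-78307576, in LRMDA, had 34 tags and a fold enrichment of 12.6, and the nearest LNCaP summit was 286 kb away. The peak at chr7:110903022-110903360, in IMMP2L, a peptidase of the inner mitochondrial membrane, had 29 tags and lay 268 kb from one. The peak at chr1:154989788-154990292, in ZBTB7B, a transcription factor of T cell development, had 47 tags, with 223 in its window, and lay 16.4 kb away. The peak at chr19:42772869-42773451, in CIC, a transcriptional repressor, had 28 tags and lay 14.2 kb away. The peaks in ZBTB7B and CIC were thus nearer to a LNCaP summit than the median member, at 29.2 kb.

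VCaP-only peaks were dense in a block on the long arm of chromosome 13. Between positions 108880132 and 112727350, 54 of 68 VCaP peaks were VCaP-only, 79.4% (67.9 to 88.3), in a chain whose neighbours were at most 500 kb apart. The block was found by looking for such chains, so its share is a description. It held the longest run in the list, 19 VCaP peaks in a row without a counterpart, from 108880132 to 110438306, and the next, 17 in a row from 111875807 to 112727350. Only 1 LNCaP peak lay within each of these runs. Outside the block, 48 of 147 VCaP peaks of chromosome 13 were VCaP-only, 32.7% (25.2 to 40.9).

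The members of the block were tall for VCaP-only peaks, over crowded windows. Their pileups ran from 14 to 53 tags with a median of 20, against a median of 11 over all members, and their fold enrichment from 2.67 to 6.52. The tallest, at chr13:111367646-111368270, lies in ING1, a reader of histone methylation. It had 53 tags, 702 tags in its window and a fold enrichment of 3.22. A LNCaP peak of 24 tags lay 2116 bp away. Per 1000000 tags of the library it had 6.54, against 6.10 for the member. That LNCaP peak overlapped a taller shared VCaP peak, of 63 tags, at chr13:111364564-111365760. Another member, at chr13:110438067-110438306, lies at the start of IRS2, an adaptor of insulin signalling, and had 32 tags. It stood 584 bp from a LNCaP peak of 21 tags. Per 1000000 tags of the library the values were 3.68 in VCaP and 5.72 in LNCaP. That LNCaP peak overlapped a shared VCaP peak of 64 tags at chr13:110438859-110439376, or 7.36 on the same scale. The site at IRS2 was thus shared, and the member was a smaller peak beside it. A further member at chr13:111766745-111767223, at the start of ARHGEF7, an activator of Rac and Cdc42, had 30 tags, and a LNCaP peak 462 bp away had 6, which is 3.45 and 1.63 on that scale. Over the VCaP peaks of the block the median window held 23.9 tags per 1000000 tags of the library, 3.05 times the median of the whole VCaP list. Over its 21 LNCaP peaks the median was 13.1 on the same scale, 0.941 times that of the LNCaP list. The share of VCaP-only peaks and the tag density of VCaP were thus both high here, and the part of one in the other was not tested.

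**Figure D4:**
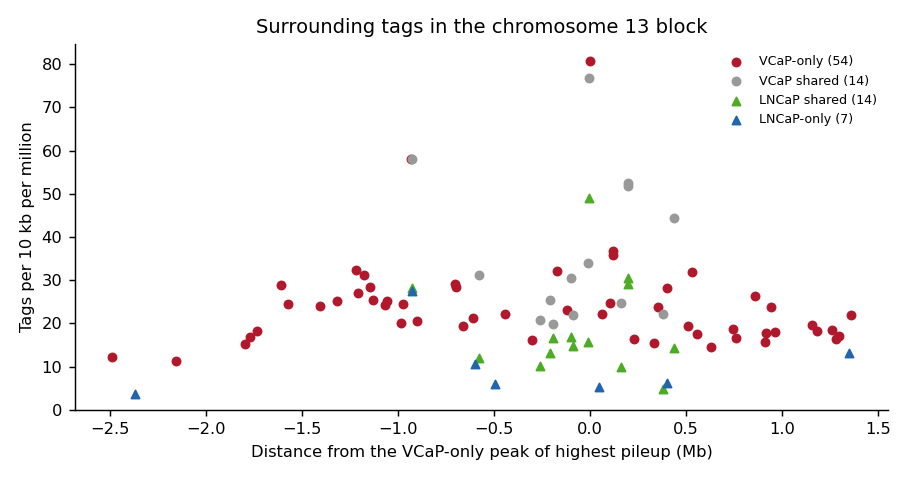
Tags in the 10 kb window per 1000000 tags of the library (vertical axis) at each peak of the chromosome 13 block, by distance in Mb from its VCaP-only peak of highest pileup (horizontal axis). Circles are VCaP peaks (54 VCaP-only in red, shared in grey) and triangles the 21 LNCaP peaks; the median is 23.9 over the VCaP peaks and 13.1 over the LNCaP peaks.

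On chromosome 6, members followed a pair of very tall shared peaks. The shared peaks at the starts of E2F3, an E2F factor that Rb binds, and of CDKAL1, a tRNA-modifying enzyme, had 111 and 207 tags in VCaP. Inside CDKAL1, 3 members had 30, 18 and 30 tags, with fold enrichments of 4.05, 3.25 and 4.74, and lay 54.9, 105 and 26.4 kb from a LNCaP summit. They were low beside the shared peaks of the same gene region, and their windows held 215 to 296 tags.

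By chromosome, the share of VCaP-only peaks ran from 17.9% to 47.4%. It was highest on chromosomes 13 (47.4%, 40.6 to 54.3), 21 (44.7%, 37.4 to 52.1), 8 (41.5%), 4 (34.8%) and 6 (34.2%), and on these 5 the interval lay above the 28.8% over all VCaP peaks. It was lowest on chromosomes 16 (17.9%, 12.7 to 24.3), 19 (18.3%, 15.3 to 21.5), 22 (21.9%), 1 (23.6%) and 3 (24.0%), with chromosome X also at 24.0%. The intervals of chromosomes 16, 19, 22, 1 and 3 lay below 28.8%, and the other 13 covered it. On chromosome 13 outside the block described above, the share was 32.7% (25.2 to 40.9), an interval that covers 28.8%. Among VCaP peaks with a fold enrichment of at least 5, the share on chromosome 13 was 31%, where it was 23.5% over all chromosomes.

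**Figure D5:**
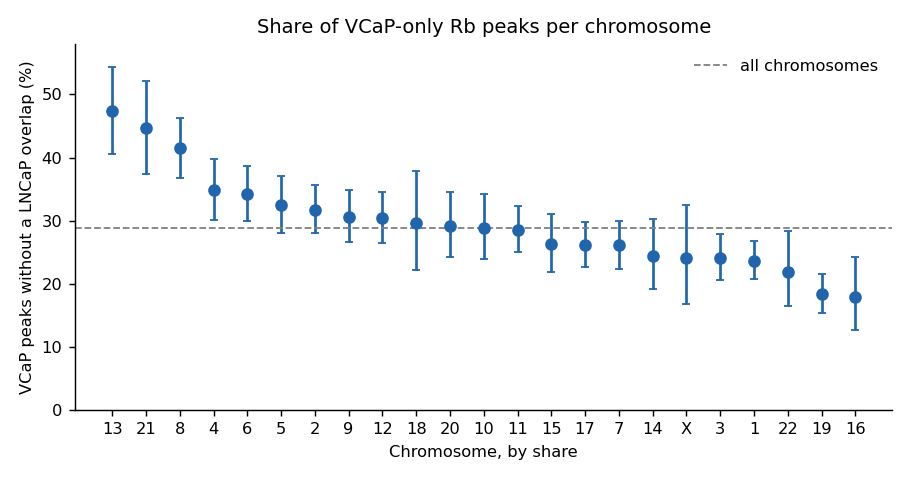
Share of VCaP peaks without a LNCaP overlap (vertical axis, percent) for each chromosome in order of the share (horizontal axis). Points are shares, bars are exact 95% intervals and the dashed line is the 28.8% over all chromosomes; chromosome 13 is highest at 47.4% and chromosome 16 lowest at 17.9%.

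At a finer scale, 178 bins of 10 Mb held at least 20 VCaP peaks, with a median share of 28.1%. The highest was 110 to 120 Mb on chromosome 13, where 46 of 63 VCaP peaks were VCaP-only, 73.0% (60.3 to 83.4). It was followed by 80 to 90 Mb on chromosome 8 (62.9%), 100 to 110 Mb on chromosome 13 (62.5%), 40 to 50 Mb on chromosome 4 (60.0%) and 70 to 80 Mb on chromosome 8 (59.4%). Of the 21 members in the chromosome 4 bin, 14 lay between 49 and 50 Mb, all near a long peak-free interval. The lowest bin was 50 to 60 Mb on chromosome 1, with 1 of 23 peaks. It was followed by 0 to 10 Mb on chromosome 19, with 5 of 77. Next came 50 to 60 Mb on chromosome 4 and 120 to 130 Mb on chromosome 3, both at 9.52%, and 0 to 10 Mb on chromosome 7 at 9.76%. The exact interval lay above 28.8% in 20 bins and below it in 12. Windows of 1 Mb with at least 10 members numbered 15 and held 193 members, 7.13% of all. On chromosome 13 the window from 112 to 113 Mb held 13 VCaP peaks, all VCaP-only. On chromosome 11 the window from 63 to 64 Mb held 16 members among 28 VCaP peaks.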

How the data were processed

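Per the file headers, the authors ran MACS 2.1.0.20140616 separately on both libraries, with no control, a q-value limit of 0.05 and 1 tag kept per position. Build hg19, MACS2 and HOMER are named in the submitters' processing notes; the aligner is not given in the sources used here. The deposited pileup is a coverage signal in tags, the deposited fold enrichment a ratio to the local background, and the deposited significance −log10 p and −log10 q. Lengths in bp were deposited too. Fold enrichment equalled pileup plus 1 over background plus 1, which gave back the tags in the 10 kb window; these were whole within 0.05 tags for 100% of peaks above the genome mean. Windows include the peak's own tags, and are known only at called peaks.

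Overlap, gaps and summit distances were computed with Python 3.11.15 (pandas 2.3.3, numpy 2.4.6) and tested on simulated intervals; exact Clopper-Pearson intervals came from scipy 1.17.1. Named were the 25 members of highest pileup, the 10 of highest fold enrichment, the 10 farthest from a LNCaP summit, the members and shared peaks nearest the edge of the rule, and the extreme chromosomes and bins. Some members named beside genes were in none of these lists. The members, gene names and lists were chosen with earlier results of these data known. Distances to transcription starts, counts for lists of genes, chromosome bands, GC content and motifs under the peaks need an annotation or genome of hg19 and were not analysed here. Gene positions were therefore named from general knowledge, and only chromosome and gene order were looked up in RefSeq GRCh38.p14. The 30 VCaP peaks on other sequences were left out. A locus is not reported here.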

Additional observations from a re-analysis of the deposited data

Results flagged for a closer look

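In data outside the rule, 1 of the 3 mitochondrial VCaP peaks had no overlap in LNCaP. It had a pileup of 311 tags and a fold enrichment of 2.17. It stands out because mitochondrial peaks enter no comparison above, and no control library shows the level to set it against.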

How the results depend on the processing

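Over 9 alternatives, of which the last 3 were chosen after seeing the data, the number of VCaP-only peaks was 991 with −log10 q of at least 5, 1525 with a fold enrichment of at least 5, 5374 with 50% reciprocal overlap and 4507 with LNCaP limited to as many peaks as VCaP by fold enrichment. The other alternatives stayed within 1.5 times the 2705. The share of VCaP peaks was, in the same order, 19.1%, 23.5%, 57.2% and 48.0%. It was 25.7% with LNCaP peaks widened by 1 kb, 41.0% with summits within 200 bp as the criterion and 23.7% for VCaP peaks that scale to at least the lowest LNCaP pileup. The median pileup was 14 tags with the limit on q, and 12 with the limit on fold enrichment, reciprocal overlap, summits, equal lists and scaled pileup. The median length was 297, 273, 272, 279, 281 and 279 bp in these 6 settings. The median fold enrichment was 6.06 with the limit on q, 5.72 with that on fold enrichment, 5.21 with reciprocal overlap and with equal lists, and 5.42 with scaled pileup. The median distance to a LNCaP summit was 23.4 kb with the limit on q, 35.0 with widened peaks, 0.518 with reciprocal overlap, 11.4 with summits, 58.4 with equal lists and 27.2 with scaled pileup. Members within 1 kb of a LNCaP summit were 0% with widened peaks, by construction, 54.2% with reciprocal overlap, 36.1% with summits, 3.39% with equal lists and 10.9% with scaled pileup. The cause of these shifts was not tested beyond the construction of each setting. Without peaks near long peak-free intervals, or without windows of over 5 times the median tags, these values stayed within their intervals. On chromosome 13 the share was between 31% and 69.3% over the alternatives. No paired analysis was possible because each line has 1 library. The alternative on starts within 5 kb was not run, since no hg19 annotation was used. Scaled by depth alone, 11 tags in VCaP would be 4.65 in LNCaP. On that scale 78.6% of members and 54.2% of shared peaks had less than 6 tags. The part of depth in the small members was not tested.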
